A study of Homo sapiens with 6 samples.

Results

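The histone lysine modifying enzymes are 64 genes of the 19664 in the files that have a protein-coding transcript, chosen by symbol: KAT, KMT, KDM or SETD followed by a digit, SETDB, numbered HDAC genes, and SIRT1 to SIRT7, with KDM5D left out. Their roles are histone acetyltransferase (8 genes), methyltransferase (19, counting the SETD genes), demethylase (19), deacetylase of the HDAC family (11) and sirtuin deacetylase (7). The symbol set the role, and some of these proteins act mainly on other substrates. They were measured in the human hepatocellular carcinoma line PLC/PRF/5 (an established cell line), transfected with siRNAs against SLU7 (siSlu7, 3 libraries) or with the irrelevant control siRNA siGL2 (3 libraries), with RNA taken 48 h later. SLU7 is a splicing factor of the step that joins exons, and the title of the series asks what its loss does to mRNA transcripts. The labels call the libraries triplicates and do not say whether they were separate cultures. The p-values therefore measure the spread between these libraries alone, and that spread may be technical.

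Lysines in the tails of histones carry acetyl and methyl groups that are put on by writer enzymes and removed by erasers. Acetyltransferases use acetyl coenzyme A, HDACs depend on zinc, and sirtuins depend on NAD+. Most lysine methyltransferases share a SET domain, and most demethylases share a Jumonji domain. Acetylation and some methylation marks go with active genes, and other methylation marks go with silent chromatin. Many genes of these families make several transcripts, among them forms that retain an intron and forms with an early stop codon that are annotated as targets of nonsense-mediated decay.

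The libraries held 7736584 to 8693977 estimated counts in the controls and 5191452 to 6315740 in the knockdowns. Mitochondrial ribosomal RNA took 16.8% to 24.1% of control counts and 29.9% to 35.3% of knockdown counts, and 7SL RNA took 15.4% to 22.8% and 7.95% to 10.5%. SLU7 itself was at 20.7, 17.0 and 18.3 CPM (counts scaled to TMM-adjusted library totals) in the controls, against 9.31, 8.23 and 10.4 in the knockdowns, without overlap (log2 fold change -1.002, edgeR adjusted p = 0.0139), while on the TPM scale, which divides by transcript length, its groups overlapped. Control replicate 1 and knockdown replicate 3 differed most from their groups, and their deviations from the group means correlated across 17109 genes (r = 0.475; genes are not independent replicates). The summed level of 9 hepatocyte markers was 17316 to 29291 CPM over the 6 libraries, against 48.8 to 67.3 CPM for 5 leukocyte, 11.4 to 24.7 CPM for 4 fibroblast and 3.29 to 4.82 CPM for 4 endothelial markers. The albumin gene ALB, a defining hepatocyte marker, was low, at 20.8 to 25.6 CPM, while APOB was at 11589 CPM or more in each library. The hepatocyte markers APOH (4.65 to 7.13 CPM) and TTR (1.20 to 5.19 CPM) were lower still. APOB and SERPINA1 (4029 to 13652 CPM) made up most of the hepatocyte sum in each library. The part of these library differences in the results was not tested, and in bulk RNA fewer cells with a transcript and less of it per cell cannot be told apart.

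The 64 genes took 0.225% to 0.253% of the counts in the controls and 0.283% to 0.303% in the knockdowns. They had 980 transcripts in the files, between 1 and 60 per gene with a median of 14.5. In TPM, which sums to the same total in every library, 59 of the 64 averaged at least 1 over the 6 libraries. SETD5, a SET domain protein, was the highest of all and of the methyltransferases, at 39.2, 38.9 and 45.5 TPM in the controls, against 74.2, 94.7 and 99.5 TPM in the knockdowns. KDM2A, a demethylase that binds unmethylated CpG DNA, was the highest demethylase, at 26.5, 18.9 and 31.1 TPM and then 64.2, 61.0 and 72.0 TPM. HDAC1, a catalytic subunit of several corepressor complexes, led its family at 26.5, 21.2 and 30.3 TPM in the controls, against 34.2, 37.0 and 37.4 TPM in the knockdowns. Lower levels led the other roles: KAT7 averaged 16.03 TPM and SIRT1 8.04 TPM over all libraries. The TPM scale shifted between the groups, since 7SL RNA alone held 42.4% to 50.9% of all TPM in the controls and 30.3% to 38.9% in the knockdowns, so levels were compared between groups on counts. Of the 64 genes, 4 were too low to test. KDM4E and KDM4F had no count in any library, KDM4D had 9, 13 and 22 estimated counts in the controls, against 8, 1 and 4 in the knockdowns, and SETD9 had 10, 7 and 10 and then 9.21, 5 and 2.

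At the gene level, 6 of the 60 tested enzymes rose in the knockdown and 4 fell, and all 6 that rose were methyltransferase genes. A difference between roles was not tested. The test was edgeR's quasi-likelihood test with Benjamini-Hochberg adjustment over all 17109 genes tested, of which 13.9% passed at an adjusted p under 0.05 (5.93% higher and 7.93% lower in the knockdown). The members' 10 of 60 lies near that background. The median log2 fold change was 0.10 over the 60 enzymes and -0.01 over all genes tested. In 32 of the 60 the 2 groups did not overlap (18 higher, 14 lower), against 36.6% of all genes (17.8% higher, 18.8% lower).

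**Figure D1:**
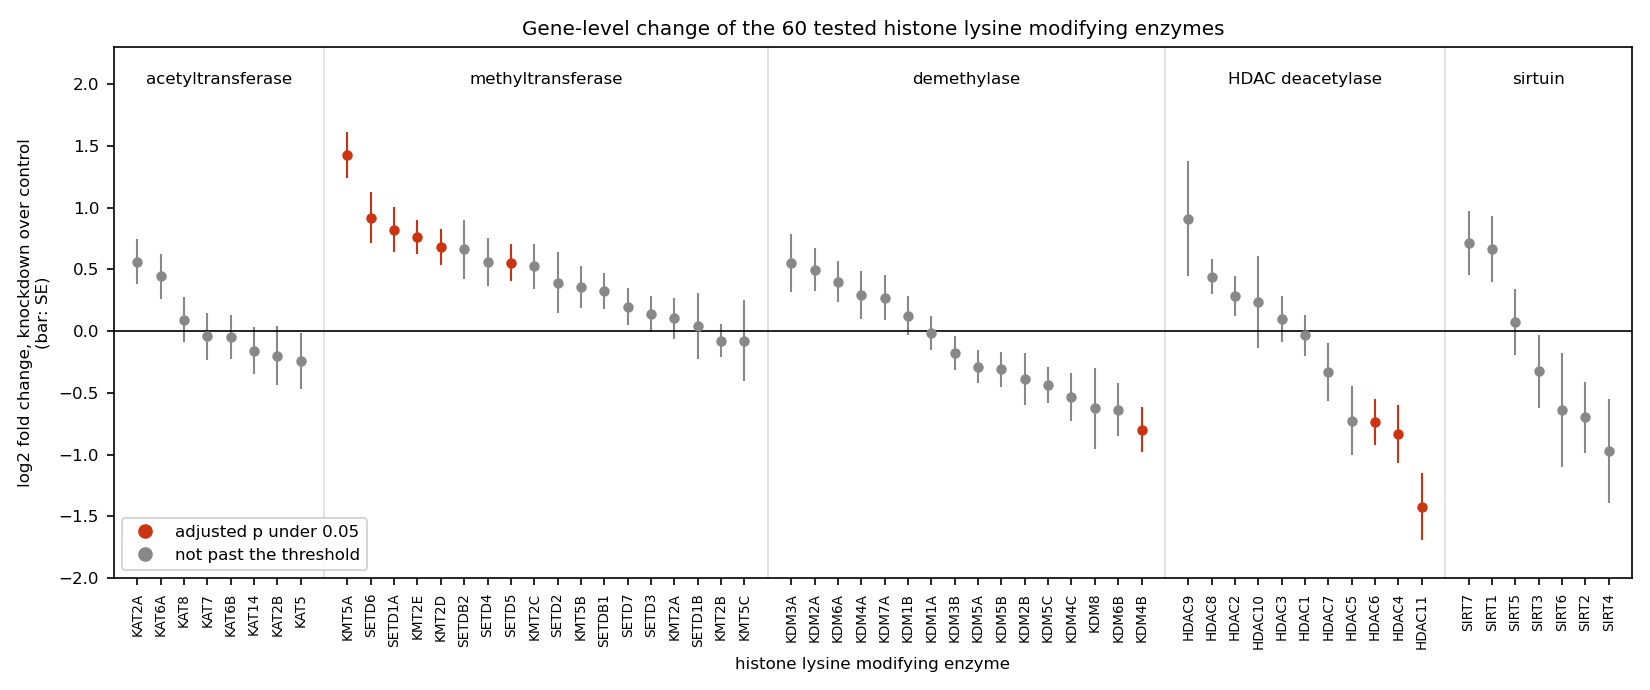
Log2 fold change of knockdown over control (vertical axis, bar: SE from edgeR) for each of the 60 tested enzymes, grouped by role along the horizontal axis; red points passed an adjusted p of 0.05. Of the 18 methyltransferases 16 lie above 0, as do 8479 of all 17109 genes tested. The 4 enzymes that fell are KDM4B, HDAC6, HDAC4 and HDAC11, of which HDAC4 turned positive (0.27) on the log2(TPM + 1) scale.

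Among the methyltransferases, 6 of 18 rose, none fell, and 16 had a log2 fold change above 0 (median 0.46). Of the 18, 10 were without overlap in the higher direction and 1, KMT2B, in the lower. Over all 17109 genes tested, 5.93% rose, 7.93% fell and 8479 had a log2 fold change above 0. Without overlap were 17.8% of all genes in the higher direction and 18.8% in the lower. KMT5A, which puts a single methyl group on histone H4, was at 7.92, 7.63 and 7.67 CPM in the controls, against 17.7, 20.5 and 24.3 CPM in the knockdowns. Every knockdown library was above every control for KMT5A, and the log2 fold change was 1.42 (SE 0.19, edgeR adjusted p = 0.00882), a 2.68-fold rise. KMT2E, a SET domain relative of the MLL proteins, was at 68.9, 68.6 and 74.5 CPM in the controls, against 125, 121 and 113 CPM in the knockdowns. KMT2E rose by a log2 fold change of 0.76 (SE 0.14, edgeR adjusted p = 0.0134), with narrow groups far apart.

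KMT2D, the methyltransferase of an MLL complex that acts on histone H3 at enhancers, was at 83.4, 73.1 and 77.1 CPM in the controls and at 118, 117 and 140 CPM in the knockdowns. Its log2 fold change was 0.68 (SE 0.15, edgeR adjusted p = 0.0224), and knockdown replicate 3 was the highest library. SETD1A, a catalytic subunit of the SET1 complexes that methylate histone H3, was at 16.5, 14.3 and 12.9 CPM in the controls. In the knockdowns SETD1A was at 24.3, 22.9 and 30.1 CPM, above every control (log2 fold change 0.82, SE 0.18, edgeR adjusted p = 0.0229). SETD6, an enzyme known to methylate a subunit of NF-kappaB, was at 16.1, 11.5 and 10.1 CPM with siGL2 and 23.99, 25.4 and 21.9 CPM with siSlu7 (log2 fold change 0.92, SE 0.21, edgeR adjusted p = 0.0240). SETD5, which is linked to corepressor complexes, was at 157, 147 and 154 CPM with siGL2 and 209, 241 and 224 CPM with siSlu7, a smaller change in proportion (log2 fold change 0.55, SE 0.15, edgeR adjusted p = 0.0398). For both genes every knockdown library was above every control. KMT5A lies at chr12:123383773-123409358 and overlaps no other annotated gene (GENCODE 29, GRCh38). KMT2E (chr7:105014179-105114361), KMT2D (chr12:49018975-49059774), SETD1A (chr16:30957294-30984664), SETD6 (chr16:58515479-58521181) and SETD5 (chr3:9397615-9479240) each overlap a gene on the opposite strand, for SETD6 the long gene CNOT1, and reads of such pairs cannot be told apart where strand was not used.

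Of the 16 tested demethylases, 1 fell, none rose, and the median log2 fold change was -0.23. Without overlap, 8 were lower and 3 higher in the knockdown. Over all genes tested, 7.93% fell and 5.93% rose, and 18.8% were lower and 17.8% higher without overlap. KDM4B, which removes methyl groups from histone H3 in silent chromatin, was at 32.5, 30.9 and 25.2 CPM in the controls, against 14.3, 17.9 and 18.9 CPM in the knockdowns. The KDM4B groups did not overlap, and its log2 fold change was -0.80 (SE 0.18, edgeR adjusted p = 0.0248). KDM4B lies at chr19:4969113-5153595 and overlaps no other annotated gene. KDM5C, an X-linked demethylase of histone H3, was at 112, 115 and 101 CPM and then 73.4, 87.7 and 80.7 CPM, without overlap, but did not pass (log2 fold change -0.44, edgeR adjusted p = 0.0753). KDM6B, an eraser of the mark that Polycomb writes, was at 13.6, 13.0 and 12.8 CPM in the controls, against 6.46, 8.66 and 10.3 CPM in the knockdowns (log2 fold change -0.64, edgeR adjusted p = 0.0785). KDM2A was at 98.9, 75.7 and 83.8 CPM in the controls, against 108, 115 and 143 CPM in the knockdowns, higher in each knockdown library but not past the threshold (log2 fold change 0.50, edgeR adjusted p = 0.0875). KDM2A passed without control replicate 1 (0.61, edgeR adjusted p = 0.0292).

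Of the 11 HDAC genes 3 fell and none rose, where 7.93% of all genes tested fell and 5.93% rose. The median log2 fold change of the HDAC genes was -0.03. HDAC11, the only member of its class in the family, was at 13.9, 28.3 and 21.6 CPM in the controls, against 7.998, 8.66 and 7.10 CPM in the knockdowns. Its controls were spread over a wide range and its knockdowns were not, and every knockdown value lay below the lowest control (log2 fold change -1.42, SE 0.27, edgeR adjusted p = 0.0154). HDAC6, a mainly cytoplasmic enzyme known to deacetylate tubulin, was at 41.6, 42.6 and 36.4 CPM in the controls, against 18.6, 26.2 and 27.8 CPM in the knockdowns. HDAC6 fell without overlap (log2 fold change -0.73, SE 0.19, edgeR adjusted p = 0.0339). HDAC4, which shuttles between nucleus and cytoplasm, was at 7.41, 10.7 and 8.43 CPM in the controls, against 5.54, 4.79 and 4.48 CPM in the knockdowns. The HDAC4 value, a log2 fold change of -0.83 (SE 0.24, edgeR adjusted p = 0.0478), was just inside the threshold, was not called by DESeq2 (adjusted p = 0.0734) and turned to 0.27 on the log2(TPM + 1) scale. HDAC8, a class I enzyme, was at 54.3, 45.8 and 53.2 CPM and then 65.8, 74.8 and 67.4 CPM, higher without overlap, and did not pass (edgeR adjusted p = 0.0706). HDAC11 (chr3:13479724-13506424) overlaps the antisense gene HDAC11-AS1, HDAC4 (chr2:239048168-239401654) overlaps several microRNA genes, and HDAC6 (chrX:48801377-48824982) overlaps no other annotated gene.

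**Figure D2:**
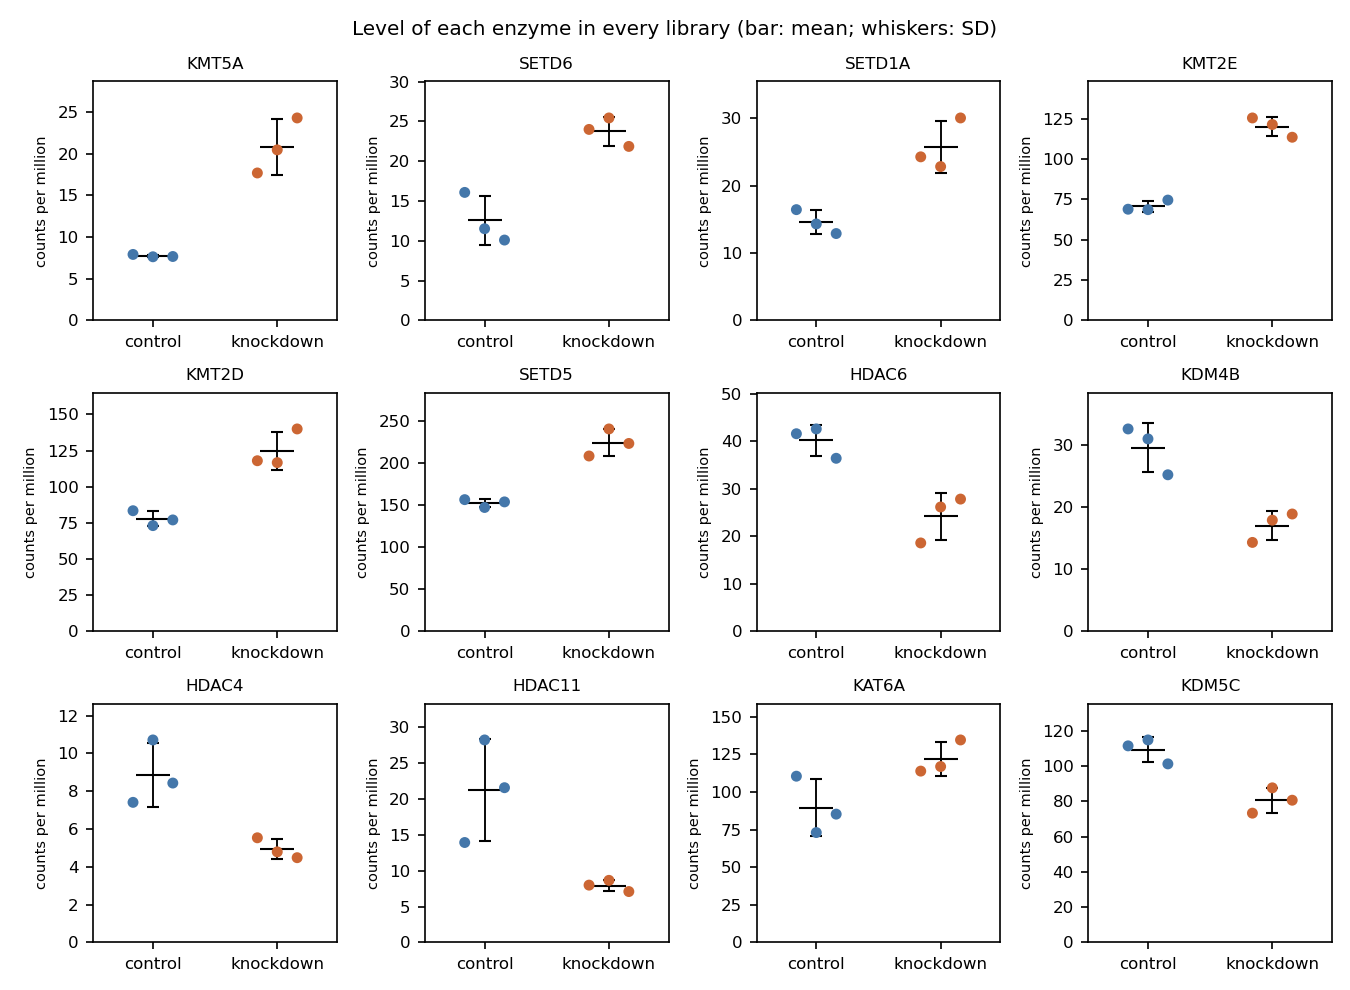
CPM (vertical axes, each from 0) in the 3 control and 3 knockdown libraries for the 10 enzymes past the gene test and for KAT6A and KDM5C, which did not pass; points are libraries, bars means and whiskers SD. In all 12 panels the 2 groups do not overlap, and the KAT6A gap is the narrowest of the higher ones, with 110 CPM in the highest control and 114 CPM in the lowest knockdown.

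None of the 7 sirtuins passed the gene test with edgeR or DESeq2, and 4 had an unadjusted edgeR p under 0.05, as did 32% of all genes. SIRT7, a nucleolar deacetylase, was at 4.02, 7.10 and 4.98 CPM in the controls, against 7.998, 8.66 and 9.72 CPM in the knockdowns (log2 fold change 0.71, edgeR adjusted p = 0.0978). SIRT1, the best studied nuclear sirtuin, was at 18.5, 10.6 and 11.6 CPM and then 21.2, 16.4 and 27.1 CPM, with overlap. The log2 fold change of SIRT1 was 0.67 (edgeR adjusted p = 0.123), and it passed without control replicate 1 (0.95, edgeR adjusted p = 0.0175). SIRT2, mainly cytoplasmic, was at 4.02, 6.30 and 4.73 CPM in the controls, against 2.77, 3.50 and 2.99 CPM in the knockdowns. SIRT4, a mitochondrial sirtuin, was at 5.15, 4.82 and 3.96 CPM and then 0.923, 3.13 and 3.18 CPM. The groups of SIRT7, SIRT2 and SIRT4 did not overlap, yet at these low counts the standard errors were 0.26 to 0.42 on the log2 scale.

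None of the 8 acetyltransferases passed the gene test with edgeR or DESeq2, 2 had an unadjusted edgeR p under 0.05 (32% of all genes did), and their median log2 fold change was -0.04. With transcript length offsets 1 of them, KAT2A, passed. KAT2A, the catalytic subunit of SAGA, was at 8.54, 8.44 and 10.2 CPM in the controls, against 14.8, 12.7 and 12.7 CPM in the knockdowns, without overlap (log2 fold change 0.56, edgeR adjusted p = 0.0752). KAT5, the enzyme of the NuA4 complex also known as TIP60, was at 8.54, 13.8 and 9.84 CPM and then 9.54, 8.66 and 8.97 CPM, and KAT14, of the ATAC complex, was at 10.9, 11.1 and 13.0 CPM and then 10.2, 11.8 and 9.53 CPM. Both overlapped between the groups, and their signs turned on the log2(TPM + 1) scale (0.42 and 0.19).

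The gene calls depended on single libraries. Without control replicate 1 all 10 calls held, but 1 held without control replicate 2, 1 without control replicate 3, 1 without knockdown replicate 1, none without knockdown replicate 2 and 2 without knockdown replicate 3. KMT5A was past the threshold in 5 of these 6 fits, with log2 fold changes of 1.30 to 1.53, and had an edgeR adjusted p of 0.0658 without knockdown replicate 2. The other 9 kept their direction in each of the 6 fits and reached adjusted p-values of up to 0.172. Without control replicate 1 and knockdown replicate 3 together, 16 enzymes rose and 9 fell, the 10 called above among them, where 5248 of 17583 genes passed over the whole table. Without knockdown replicate 2, edgeR called no gene of the whole table, and 19 enzymes had an unadjusted p under 0.05, as did 22.9% of all genes.

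The scale also mattered. With limma on log2(TPM + 1), where the median change of all genes was 0.35, all 6 methyltransferases stayed past the threshold with larger changes (0.87 to 1.72), and none of the 4 that fell did. HDAC11 was then at -0.71 (adjusted p = 0.0666), KDM4B at -0.14 (0.568), HDAC6 at -0.0013 (0.998) and HDAC4 at 0.27 (0.466). On the same scale KAT2A (1.43), KDM2A (1.36), SIRT1 (1.40) and HDAC8 (0.91) passed, and the signs of KDM5C (0.41), KDM6B (0.52) and SIRT2 (0.13) turned. With edgeR and transcript length offsets, KMT5A, KMT2D (1.17) and HDAC11 stayed past the threshold. The calls of KMT2E, SETD1A, SETD6, SETD5, KDM4B (adjusted p = 0.0711), HDAC6 (-0.55, adjusted p = 0.254) and HDAC4 (-0.20, adjusted p = 0.728) were lost with these offsets. KAT2A (1.28, adjusted p = 0.0487) and KDM2A (0.83, adjusted p = 0.0425) passed with them, SIRT1 was at 1.10 (adjusted p = 0.0627), and KDM6B changed sign (0.13).

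KAT6A, an acetyltransferase of histone H3 that works in a complex with BRPF1, ING5 and MEAF6, was at 110, 73.0 and 85.2 CPM in the controls, against 114, 117 and 135 CPM in the knockdowns. Every knockdown library was above every control, but the log2 fold change of 0.44 (SE 0.18) did not pass (edgeR adjusted p = 0.138). Without control replicate 1 it was 0.62 with an adjusted p of 0.0207, and without both control replicate 1 and knockdown replicate 3 it was 0.55 with 0.0130. The gene (ENSG00000083168.11) lies at chr8:41929479-42052026 on the minus strand (GENCODE 29, GRCh38) and has 17 transcripts in the files.

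By transcript, 1 KAT6A form was nearly lost. Estimated counts of transcripts, here and below, are not scaled to library totals, which were lower in the knockdowns. KAT6A-214 (ENST00000649817.1), a coding transcript of 11 exons, had 162, 134 and 126 estimated counts in the controls, against 0, 0.05 and 0 in the knockdowns. It made up 18.5%, 24.6% and 18.95% of the KAT6A counts in the controls and almost none in the knockdowns, at least 37.4-fold lower against a floor of 3 counts per library. In the test of transcript usage, which asks whether a transcript's share of its gene changed, KAT6A had an adjusted p of 1.78e-07 (edgeR diffSpliceDGE, Simes method, over 8869 genes), and it passed in each of the 6 fits without 1 library. The same question asked with limma diffSplice gave an adjusted p of 0.180 for KAT6A. In the test of single transcripts KAT6A-214 had an edgeR adjusted p of 0.0994, and none of the 43128 transcripts had a smaller one.

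As annotated, KAT6A-214 starts with a 31-base exon (chr8:41974704-41974734) within exon 9 of KAT6A-213, and so lacks exons 1 to 8 of that transcript. The last exon has 4106 bases in KAT6A-214 and 1680 in KAT6A-213. KAT6A-214 also includes a 132-base exon at chr8:41957049-41957180 that 6 other KAT6A transcripts skip. Its share against the matched transcripts that join the flanking exons directly was 31.99%, 40.1% and 27.7% in the controls, against 0%, 0.0131% and 0% in the knockdowns, with KAT6A-201 outside this share because the annotation used holds another version of it. The retained-intron transcript KAT6A-204 contains the same bases within a longer exon and had 3.87, 6.82 and 1.59 estimated counts in the controls, against 7.85, 8.11 and 5.45 in the knockdowns. KAT6A-214 and KAT6A-204 together thus had 166, 141 and 128 estimated counts in the controls, against 7.85, 8.16 and 5.45 in the knockdowns. Only 26 of the 6109 stretches of 31 bases in KAT6A-214 (0.426%) are found in no other KAT6A transcript of the annotation, so its count rests on few distinguishing reads plus the quantifier's division of shared ones, whose error the files do not give.

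The other KAT6A coding forms varied more within the groups. KAT6A-213, which joins the exons on either side of that exon directly, had 248, 171 and 139 estimated counts in the controls, against 241, 226 and 319 in the knockdowns, or 28.2%, 31.4% and 20.8% and then 32.5%, 35.6% and 44.4% of the gene. KAT6A-201, the longest form with counts, had 298, 154 and 135 and then 174, 114 and 211, and KAT6A-202 had 62.4, 14.6 and 169 and then 161, 102 and 72.1. The division between KAT6A-201 and KAT6A-202 differed as much within a group as between groups. KAT6A-205 had 11.4 to 21.6 counts in the controls and 16.6 to 31.9 in the knockdowns. KAT6A-208 was low, at 2.54, 3.44 and 0 counts in the controls, against 8.66, 29.2 and 16.4 in the knockdowns, and KAT6A-209 did not exceed 5.02.

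Of the KAT6A transcripts that retain an intron, KAT6A-217 had 13.9, 14.3 and 20.5 estimated counts in the controls, against 35.9, 24.8 and 27.2 in the knockdowns, without overlap. KAT6A-206, KAT6A-207, KAT6A-210, KAT6A-211, KAT6A-212 and KAT6A-216 overlapped between the groups, at 22.2 counts or fewer in each control and 28.1 or fewer in each knockdown. The decay transcript KAT6A-215 had 21.9, 2.83 and 11.5 and then 14.7, 9.04 and 10.9. Protein-coding transcripts together held 90.5%, 89.6% and 88.6% of the KAT6A counts in the controls, against 83.2%, 76.8% and 89.8% in the knockdowns. The mean difference of -6.28 percentage points was not distinguishable from the spread (exact permutation test over 6 libraries, two-sided p = 0.3, smallest possible 0.1).

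**Figure D3:**
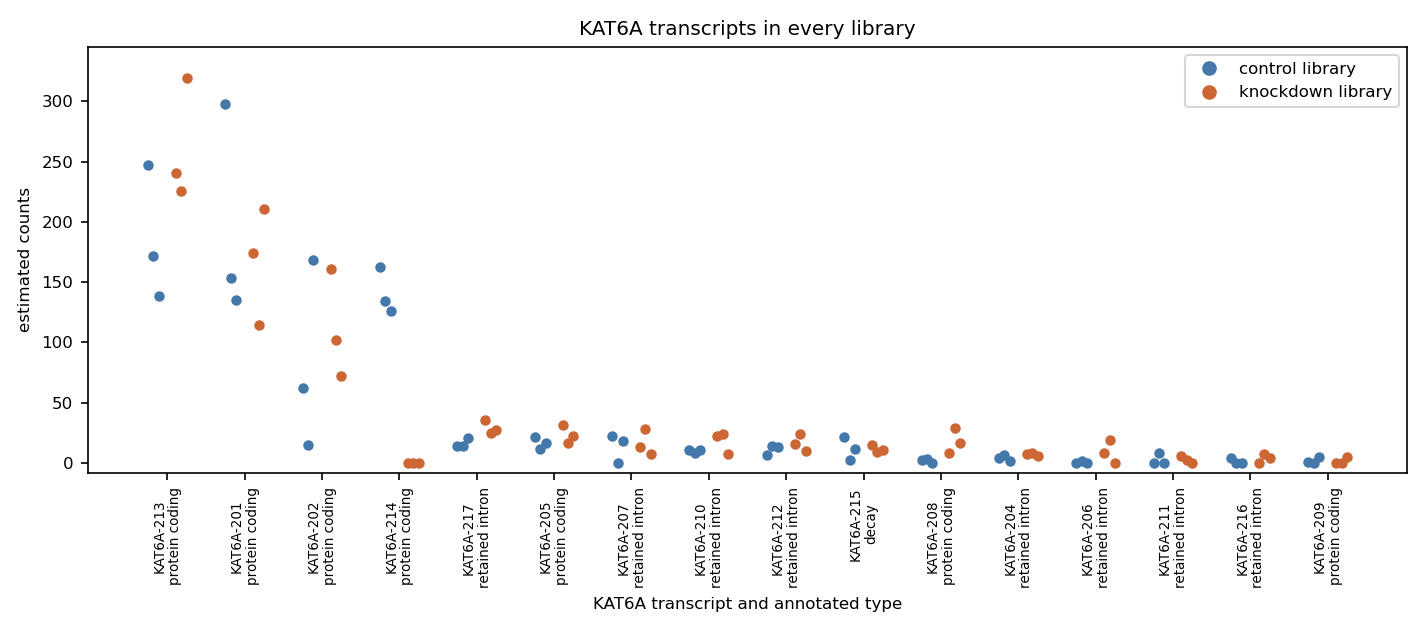
Estimated counts (vertical axis) of the 16 KAT6A transcripts with a mean of at least 1 per library, by transcript and annotated type (horizontal axis); each point is 1 library, blue control and orange knockdown. KAT6A-214 drops from 126 or more in each control to the zero line in the knockdowns, while KAT6A-213, KAT6A-201 and KAT6A-202 are present in both groups. The counts are not scaled to library totals.

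Over all the enzymes, 46 had at least 2 tested transcripts, and 3 passed the transcript usage test (KAT6A, SETD3 and SETD5), against 2.9% of all genes in that test. By single transcripts none of 285 member transcripts passed at an adjusted p under 0.05, nor did any of the 43128 tested (0%). At an unadjusted p under 0.05 there were 47 member transcripts (31 higher, 16 lower), and 16.1% of all transcripts. Of the member transcripts, 5 had at least 10 estimated counts in every control and none, when rounded, in any knockdown: KAT6A-214, KAT6B-232, SETDB1-201, SIRT5-218 and SETD3-203. That is 1.75% of the member transcripts tested, and 0.41% of all transcripts tested met the same description. Coding KAT6B-232, of the acetyltransferase most like KAT6A, had 67.9, 27.7 and 45.6 counts in the controls, and none of its 31-base stretches is unique within the gene. Coding SETDB1-201, of the enzyme that methylates histone H3 at silenced repeats, had 115, 43.7 and 15.6. SIRT5-218, a coding form of the mitochondrial desuccinylase, had 16.1, 17.4 and 19.9 in the controls, while SIRT5-210, a decay form, had none there and 16.6, 10.4 and 20.1 in the knockdowns. The genes KAT6B, SETDB1 and SIRT5 did not pass the usage test (edgeR adjusted p = 0.0672, 0.0731 and 0.230).

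SETD3, a SET domain protein best known for methylating a histidine of actin, changed its transcript usage (edgeR diffSpliceDGE adjusted p = 0.00339). The gene as a whole did not pass the gene test, at 51.6 ± 5.67 CPM in the controls and 56.9 ± 4.36 CPM in the knockdowns (SD, n = 3 each; edgeR adjusted p = 0.553). The forms compared below include or skip a 149-base cassette exon at chr14:99461192-99461340 (minus strand). The usage test compared whole transcripts, and this cassette exon was not tested by itself. With the exon, the reading frame of SETD3-204 runs for 292 codons. Without it, the first in-frame stop codon of SETD3-203 comes after 81 codons, in exon 4. Both joins are shown from the GENCODE 29 transcripts (GRCh38), because the shares below compare them (chr14:99459166-99463505 and chr14:99459136-99463505, minus strand, introns left out). Capitals mark the cassette exon in the first and the stop codon in the second.
SETD3-204 inclusion: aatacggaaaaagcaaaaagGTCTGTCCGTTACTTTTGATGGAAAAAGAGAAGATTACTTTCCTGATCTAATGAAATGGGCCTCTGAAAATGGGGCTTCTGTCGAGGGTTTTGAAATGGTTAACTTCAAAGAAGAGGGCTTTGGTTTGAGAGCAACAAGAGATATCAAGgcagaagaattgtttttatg
SETD3-203 skipping: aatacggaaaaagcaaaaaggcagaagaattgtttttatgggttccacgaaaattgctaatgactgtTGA
The inclusion transcripts had 82.7, 59.2 and 80.2 estimated counts in the controls, against 120, 155 and 114 in the knockdowns. The skipping transcripts had 297, 265 and 215 and then 142, 96.7 and 111. Inclusion thus made up 21.8%, 18.3% and 27.2% in the controls, against 45.7%, 61.5% and 50.6% in the knockdowns, without overlap. The coding form SETD3-204 was at or near 0 in the controls and at 17.97, 18.6 and 18.2 in the knockdowns, and the decay form SETD3-203 went from 25.8, 13.9 and 11.8 to 0. Of the stretches of 31 bases in SETD3-204, 299 of 2562 are unique to it within the gene, and in SETD3-203 none is. SETD3-204 and SETD3-203 also differ in their last exons, of 1787 and 1488 bases, so their counts do not reflect the cassette exon alone. The coding form SETD3-202, which stands in the annotation used under another version and is outside these shares, had 74.5, 50.2 and 71.7 and then 93.0, 79.5 and 60.3. Coding transcripts as a whole held 35.9%, 34.1% and 42.8% of the SETD3 counts in the controls, against 60.9%, 71.8% and 63.5% in the knockdowns. The coding class of SETD3 did not pass the test of class usage (edgeR diffSpliceDGE on class sums, adjusted p = 0.778). SETD3 was not past the usage threshold without control replicate 1, 2 or 3 or without knockdown replicate 2.

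SETD5 passed the usage test (edgeR diffSpliceDGE adjusted p = 0.00522) through SETD5-202, a coding transcript (usage adjusted p = 0.0013) with 0.594, 162 and 118 estimated counts in the controls, against 10.0, 0 and 0 in the knockdowns. Control replicate 1 was as low as the knockdowns for SETD5-202, so the groups overlapped. The most abundant SETD5 transcript was the decay form SETD5-209, at 458, 151 and 240 counts in the controls, against 524, 495 and 482 in the knockdowns. Coding transcripts together held 33.9%, 42.5% and 42.2% of SETD5 in the controls, against 23.2%, 28.3% and 25.5% in the knockdowns, without overlap. The coding class of SETD5 did not pass the test of class usage (edgeR diffSpliceDGE on class sums, adjusted p = 0.547). The gene-level F test of usage did not call SETD5 (adjusted p = 0.102), and it was not called without control replicate 2 or 3 or without knockdown replicate 2 or 3.

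KDM5B, an eraser of methyl groups on histone H3 at promoters, changed between classes of transcript. Its decay class held 32.8%, 43.5% and 46.9% of the gene's counts in the controls, against 8.49%, 8.98% and 17.3% in the knockdowns, without overlap. Its retained-intron share was 41.8%, 31.5% and 32.6% and then 65.2%, 58.2% and 42.3%, and its coding share 24.7%, 24.7% and 19.9% and then 25.9%, 31.8% and 39.3%, both higher without overlap. The decay class usage change was -1.79 on the log2 scale (edgeR diffSpliceDGE on class sums, adjusted p = 0.00967), and KDM5B was the only one of the 46 enzymes in that test to pass, where 2.5% of 6838 genes did. Most of the decay class was 1 transcript, KDM5B-236, with 269, 303 and 364 estimated counts in the controls, against 40.9, 27.3 and 79.5 in the knockdowns. The gene did not pass the test of transcript usage (edgeR diffSpliceDGE, Simes method, adjusted p = 0.253). KDM5B-236 starts exon 4 at a 3′ splice site 4 bases downstream of the usual one (chr1:202773118-202773288, minus strand, for the longer exon). Its first stop codon then comes after 189 codons, 3923 bases before the last exon junction. KDM5B-236 also lacks the 108-base exon 6 of the coding transcript KDM5B-202, and its last exon has 693 bases against 1739. Its counts thus do not reflect this splice site alone. The joins of a coding transcript and of KDM5B-236 are shown from the GENCODE 29 transcripts (GRCh38), with the 4 bases that differ in capitals (chr1:202773253-202774636, minus strand, intron left out); they are the whole difference between the forms at this site.
KDM5B-202 junction: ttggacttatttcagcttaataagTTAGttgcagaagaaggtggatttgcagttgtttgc
KDM5B-236 junction: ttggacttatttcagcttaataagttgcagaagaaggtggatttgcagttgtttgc
The longer form, at the upstream site, made up 42.6%, 41.7% and 31.7% of the counts of both forms in the controls, against 86.3%, 90.3% and 65.4% in the knockdowns. Knockdown replicate 3 was the lowest of its group and still above every control. Within KDM5B-236, 26 of 5332 stretches of 31 bases are unique to it among 40 transcripts of the gene, those across this join. The KDM5B gene itself was at 101 ± 9.52 CPM in the controls and 81.8 ± 3.40 CPM in the knockdowns (SD, n = 3 each; edgeR adjusted p = 0.171). Without control replicate 2 or 3, or knockdown replicate 1 or 2, the class call was lost.

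**Figure D4:**
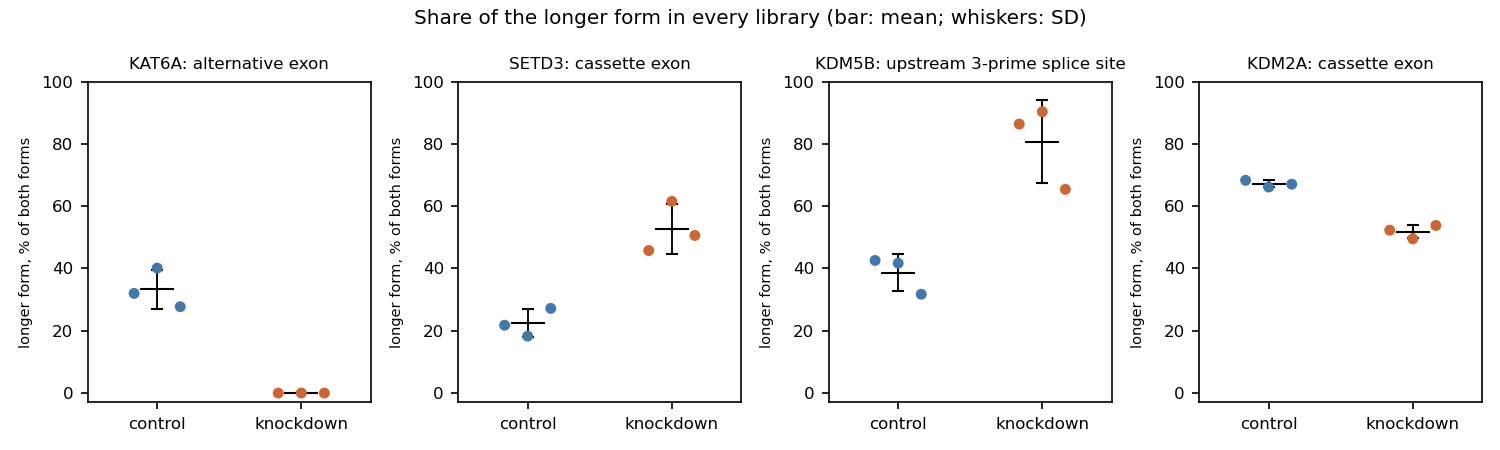
Share of the longer form (vertical axes, % of the estimated counts of both forms) in the 3 control and 3 knockdown libraries for 4 splice choices; points are libraries, bars means and whiskers SD. The KAT6A exon is at 27.7% or more in the controls and at the zero line in the knockdowns, the SETD3 exon and the upstream KDM5B site are higher in each knockdown, and the KDM2A exon is at 66.1% or more and then 53.8% or less.

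In KMT2B, an MLL family methyltransferase, the decay class was just outside the threshold (edgeR adjusted p = 0.0513). It held 6.80%, 18.4% and 4.18% of the counts in the controls, against 27.7%, 30.4% and 31.4% in the knockdowns. Coding transcripts of KMT2B held 89.0%, 75.9% and 88.6% in the controls, against 61.7%, 58.2% and 57.8% in the knockdowns, without overlap. Most of the KMT2B difference lay between the coding KMT2B-201, at 303, 214 and 284 and then 159, 107 and 108 estimated counts, and the decay form KMT2B-209, at 23.2, 53.9 and 12.4 and then 66.0, 55.4 and 55.7. KMT2B (chr19:35718019-35738878) overlaps IGFLR1 on the opposite strand. In HDAC1, named after its values were seen, retained-intron transcripts held 17.1%, 13.3% and 20.2% in the controls, against 30.3%, 44.3% and 40.6% in the knockdowns, with an adjusted p of 0.224 in the edgeR class test.

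**Figure D5:**
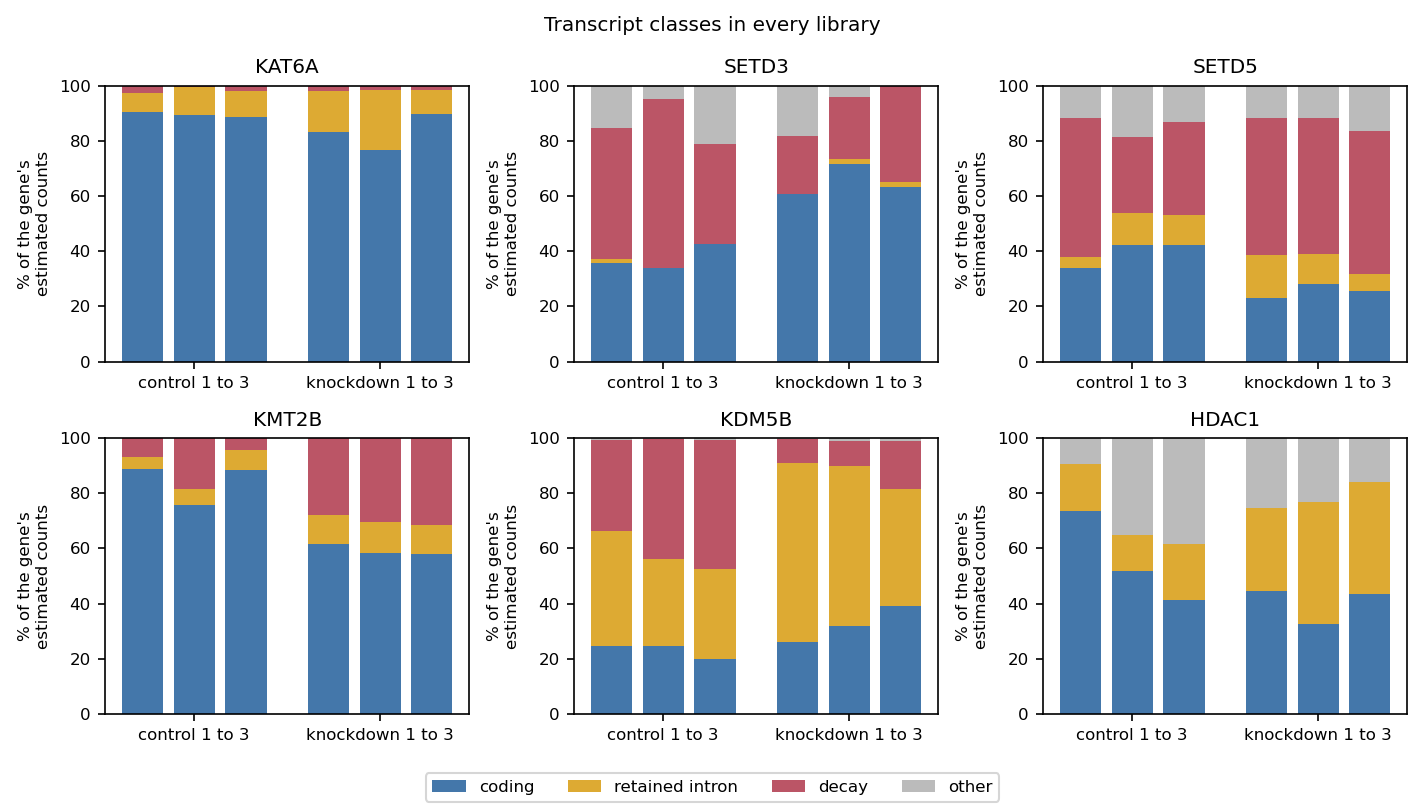
Share of each gene's estimated counts (vertical axes, %) in coding, retained-intron, decay and other transcripts for 6 enzymes; each bar is 1 library, controls at left and knockdowns at right. In each knockdown the decay share is lower for KDM5B and higher for KMT2B, the coding share is higher for SETD3 and lower for SETD5, and the retained-intron share is higher for HDAC1. Of these 6 enzymes only KDM5B passed the class test.

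Summed over the 64 enzymes, retained-intron transcripts held 10.8%, 11.9% and 11.8% of the counts in the controls, against 15.7%, 15.003% and 12.9% in the knockdowns. Coding transcripts held 70.6%, 68.8% and 69.9% and then 65.0%, 64.1% and 66.0%. Neither overlapped, and the same held over all genes with a coding transcript, where retained introns went from 10.4%, 9.67% and 10.0% to 13.6%, 13.3% and 13.4%. Gene by gene, the log2 usage change of the retained-intron class was above 0 in 25 of the 35 enzymes tested for it (71.4%). The same held in 75.5% of all genes tested for it. The log2 usage change of the coding class was above 0 in 15 of 45 enzymes (33.3%, against 30.2% of all genes). That of the decay class was above 0 in 9 of 22 (40.9%, against 55.2%).

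In all, 125 alternative splice sites within 30 bases of each other and cassette exons of the enzymes had at least 10 estimated counts in every library. For 17 of them (13.6%) the groups did not overlap, near the 12.4% of all 16613 such choices in the annotation, and for 9 (7.2%, against 8.17%) the means were also over 10 percentage points apart. Among these 9 was a 122-base exon of KDM2A (chr11:67131952-67132073), named after its values were seen, which was included in 68.3%, 66.1% and 67.0% in the controls, against 52.3%, 49.5% and 53.8% in the knockdowns. Choices of 1 gene share transcripts, and shares were taken only over transcripts found in GENCODE 29 under the same version and length, 827 of the 980, which held 65.2% to 69.2% of the enzymes' counts.

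A list of 90 other histone lysine modifiers and partners of these enzymes, of which 89 were tested, held 15 genes that rose and 2 that fell, where 5.93% of all genes tested rose and 7.93% fell. Their median log2 fold change was 0.15, against -0.01 over all genes. The list was chosen with earlier results of these data known, so this comparison with all genes cannot test for an excess. The calls of this list were read from the main fit alone. Without knockdown replicate 2, and with the replicate block, edgeR called no gene of the whole table, so these calls were lost there too. The 6 with the smallest p all rose without overlap. EPC1, a scaffold of the NuA4 complex of KAT5, went from 18.003 ± 1.15 to 40.3 ± 2.94 CPM (SD, n = 3 each; edgeR adjusted p = 0.00881). KANSL2, a subunit of the KAT8 complex NSL, went from 14.4 ± 2.02 to 32.9 ± 2.50 CPM (edgeR adjusted p = 0.00923). BRPF1, a scaffold of the KAT6A complex, went from 28.1 ± 3.73 to 57.7 ± 2.91 CPM (edgeR adjusted p = 0.00947). The others were PAXIP1, a subunit of the KMT2C and KMT2D complexes (log2 fold change 0.87), EZH2, the Polycomb methyltransferase (1.004), and MTF2, which binds the Polycomb complex (0.81). The 2 that fell were MEN1, a subunit of the KMT2A and KMT2B complexes (log2 fold change -0.95), and TBL1XR1, of the HDAC3 corepressor complex (-0.66), both named after their values were seen. By list, 4 of 16 partners of KAT5, KAT8 and KAT2 rose, 2 of 9 of KAT6 and KAT7, 3 of 11 of the KMT2 and SET1 enzymes (1 fell), 1 of 7 genes of Polycomb complex 2, 5 of 26 other enzymes, and 0 of 20 of the deacetylase complexes (1 fell). A difference between these lists was not tested.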

How the data were processed

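RNA of 6 libraries (3 control, 3 knockdown) was extracted with TRIzol and made into libraries from polyA RNA with a ScriptSeq kit, per the labels' protocols. FastQC 0.11.8, Trimmomatic 0.38, kallisto 0.46.1, sleuth 0.30.0 and the build GRCh38 are named, without role or order, in the submitters' processing notes. Per the file headers, the authors deposited estimated counts per transcript, not normalized, and TPM values. The sources used here do not give the GENCODE release of the files or the strand setting. The estimated counts of 234326 transcripts (159 pseudoautosomal records merged) were summed to 60607 genes and rounded. Tests of genes, transcripts and usage used R 4.3.3 and edgeR 4.0.16 (TMM, filterByExpr with counts of 10 and 15, quasi-likelihood test, diffSpliceDGE with Simes, Benjamini-Hochberg at 0.05), and the procedure was tested on simulated data. Usage coefficients were put on the log2 scale, and standard errors are the log2 fold change over the root of F. CPM values use TMM-scaled totals. Classes followed the transcript types: coding, retained intron, decay, and the remaining types. Gene positions, splice choices and sequences came from GENCODE 29 (GRCh38); choices needed 10 counts in every library.

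Named were KAT6A and its transcripts with a mean of at least 1 count, each enzyme past a test, up to 4 per role with the smallest gene p, the highest TPM per role, untested enzymes, and up to 6 other modifiers. The members and lists were chosen with earlier results of these data known. Alternatives were RLE size factors, no filter, a filter at 1 CPM and 10 counts in 3 libraries, DESeq2 1.42.0, a replicate block, fits without each library in turn, limma 3.58.1 on log2(TPM + 1), transcript length offsets, a gene-level F test, limma diffSplice and TPM shares. Leaving out control replicate 1 and knockdown replicate 3 together was chosen after seeing the data.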

Additional observations from a re-analysis of the deposited data

How the results depend on the processing

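The 6 higher and 4 lower enzymes became 0 and 0 with the replicate block (no gene of the table passed in edgeR, and 18 enzymes and 24.6% of all genes had an unadjusted p under 0.05), 16 and 9 without the 2 libraries that stood apart, and 18 and 0 with limma on log2(TPM + 1), where the median of all genes moved to 0.35. Same-numbered libraries deviated with correlations of -0.44, 0.13 and -0.41 across genes. Only knockdown replicate 2 correlated best with the library of its own number, so the numbers were not taken to pair the libraries. Leaving out 1 library gave 0 to 13 higher and 0 to 5 lower. Transcript length offsets left 1 lower. The replicate block left 1 enzyme past the usage test (KAT6A) and 0 past the class test. Leaving out 1 library gave 1 to 4 and 0 to 5, and leaving out the 2 libraries that stood apart gave 2 past the class test. The KAT6A gene change (0.44) ranged from 0.30 to 0.62 without 1 library (0.62 without control replicate 1, past the threshold), and passed at 0.55 without both libraries and at 1.14 with limma on log2(TPM + 1). The KAT6A coding share difference was -16.3 points on TPM (exact permutation p = 0.4) and -9.54 to -3.05 without 1 library. HDAC4 reversed to 0.27 with limma on log2(TPM + 1). No single transcript passed with RLE size factors, the stricter filter, the replicate block or without 1 library or both; the single transcript test was not run with the other settings. RLE size factors and the stricter filter kept all 10 gene calls, no filter kept 9 (5 higher and 5 lower in all), DESeq2 kept 9 (6 and 3) and length offsets kept 3 (5 and 1). The cause of these differences was not tested. Limma diffSplice called 3 enzymes, KDM5A, KDM5B and KMT2B, and not KAT6A. Depth limits the low genes, such as SIRT2, SIRT4 and SIRT7 at under 10 CPM, and transcripts that few unique bases tell apart. Called enzymes were also under 10 CPM in 1 group: KMT5A in the controls (7.63 to 7.92), and HDAC11 (7.10 to 8.66) and HDAC4 (4.48 to 5.54) in the knockdowns.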
